A study of Mus musculus with 16 samples.

Results

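The genes that write, copy and erase DNA methylation were followed in p53-/-; Myc hepatoblasts, a mouse liver progenitor line used as a model of hepatocellular carcinoma, during treatment with the kinase inhibitor sorafenib. The 8 members, chosen by name, were Dnmt1, Dnmt3a, Dnmt3b, Uhrf1, Tet1, Tet2, Tet3 and Tdg. All 8 were present among the 40840 genes of the count table, and all 8 passed the filter of at least 10 counts in total, which left 20444 genes for testing. Cells received sorafenib at 8.5 µM or the vehicle DMSO for 48 hours or for 7 days, with 4 libraries in each of the 4 groups. Every group carried the same background, loss of p53 and overexpression of Myc, and came from the same cell line. The labels do not state whether libraries came from separate cultures, so the p-values measure only the spread between these libraries.

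Cytosine methylation at CG pairs is copied to the new strand after replication by DNMT1, which UHRF1 recruits to half-methylated sites. DNMT3A and DNMT3B place methyl groups on unmethylated DNA. TET1, TET2 and TET3 oxidise methylated cytosine with alpha-ketoglutarate as a co-substrate, and the glycosylase TDG removes the most oxidised forms so that base excision repair can restore unmodified cytosine. Dnmt1 and Uhrf1 are known as genes of dividing cells. RNA was measured here, and neither the proteins nor DNA methylation itself.

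Library totals ranged from 16586254 to 30828427 counts, and values are given as normalized counts, scaled to a common library size. The replicate 2 library of sorafenib at 48 hours stood apart from the rest of its group. Its genes on chromosomes 15 to 19 and X lay below those of the other 3 libraries, with a median log2 deviation per chromosome between -0.64 and -0.62, and its genes on chromosomes 1 to 13 lay above by 0.08 to 0.10. In the other libraries the median per chromosome stayed between -0.05 and 0.03. Replicate 4 of DMSO at 7 days also stood apart, through a few genes: its chi-square per gene against the other 3 libraries was 29.4 to 39.2, and 2.19 to 2.39 without the 20 genes that contributed most, none of them a member. LOC118568312, AY036118 and Lars2 led these and took 3.23% of its counts, against 0.313 to 0.434% in the rest of its group. They took 2.98% and 2.13% in replicates 2 and 3 of DMSO at 48 hours. For replicate 2 of sorafenib at 48 hours the chi-square per gene without those 20 genes was still 18.4 to 21.3. Among the members Uhrf1, on chromosome 17, lies in the lowered region and the other 7 lie on the raised chromosomes. In that library 6 members had the highest value of their group, and Uhrf1 and Dnmt3b had the lowest. The markers fitted the hepatoblast label in part. Hnf4a had 0 counts in all 16 libraries, Alb had 0 to 1 and Afp 0 to 14, whereas Dlk1 had 3488 to 38122 and Krt19 865 to 3013. The summed normalized count of the 7 hepatoblast markers that passed the filter ran from 34811 to 36175 in DMSO at 48 hours, 12242 to 14015 in sorafenib at 48 hours, 18304 to 20167 in DMSO at 7 days and 6039 to 6306 in sorafenib at 7 days. Most of this sum was Dlk1, and the other 6 markers summed to 3196 to 3437, 2376 to 2593, 2274 to 2352 and 2100 to 2230. The 4 stellate or fibroblast markers summed to 46639 to 49754, 133420 to 154717, 66138 to 67897 and 114436 to 119550 in the same order, mostly through Col1a1 and Acta2. Both sums moved with treatment and time, as the members did, and the part of either in the results was not tested. Of the leukocyte genes Ptprc had 0 to 4 counts and Lyz2 0 to 1, while Cd74 had 21 to 77. The endothelial genes Pecam1 and Cdh5 had 0 to 9 and 0 to 2. Reads on Trp53 (1268 to 4799 counts) and Myc (4226 to 17797) were present in every library, so the counts alone do not show the knockout.

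After 48 hours of sorafenib 7 of the 8 members differed from DMSO at a false discovery rate (FDR) under 0.05, with 2 higher and 5 lower. Tet1 fell most, followed by Dnmt3b, Uhrf1 and Tet2. After 7 days 7 of 8 again differed, with 1 higher and 6 lower, and Dnmt3b and Tet1 had fallen furthest, with Dnmt3a now lower too. FDR values are Benjamini-Hochberg values, over all tested genes, of the quasi-likelihood test in edgeR. These counts have to be read against a wide response: 54.6% of all tested genes passed the same threshold at 48 hours (26.9% higher and 27.7% lower), and 56.8% did so at 7 days (28.9% higher and 27.9% lower). In a fit of the 12158 genes with at least 10 counts in every sample, 9196 were called at 48 hours and 9146 at 7 days. That fit called 7 of the 8 members at each time. The members' median log2 fold change was -0.32 at 48 hours, beside -0.05 over all tested genes, and -0.43 at 7 days, beside 0.02. Over the 10646 genes averaging 100 or more normalized counts, the median was 0.02 at 48 hours and -0.03 at 7 days. The 4 treated and the 4 vehicle libraries did not overlap for 8 of 8 members at 48 hours and 7 of 8 at 7 days, where 48% and 56.8% of all tested genes did not overlap. In bulk RNA, fewer cells expressing a gene and less of its RNA per cell cannot be told apart.

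**Figure D1:**
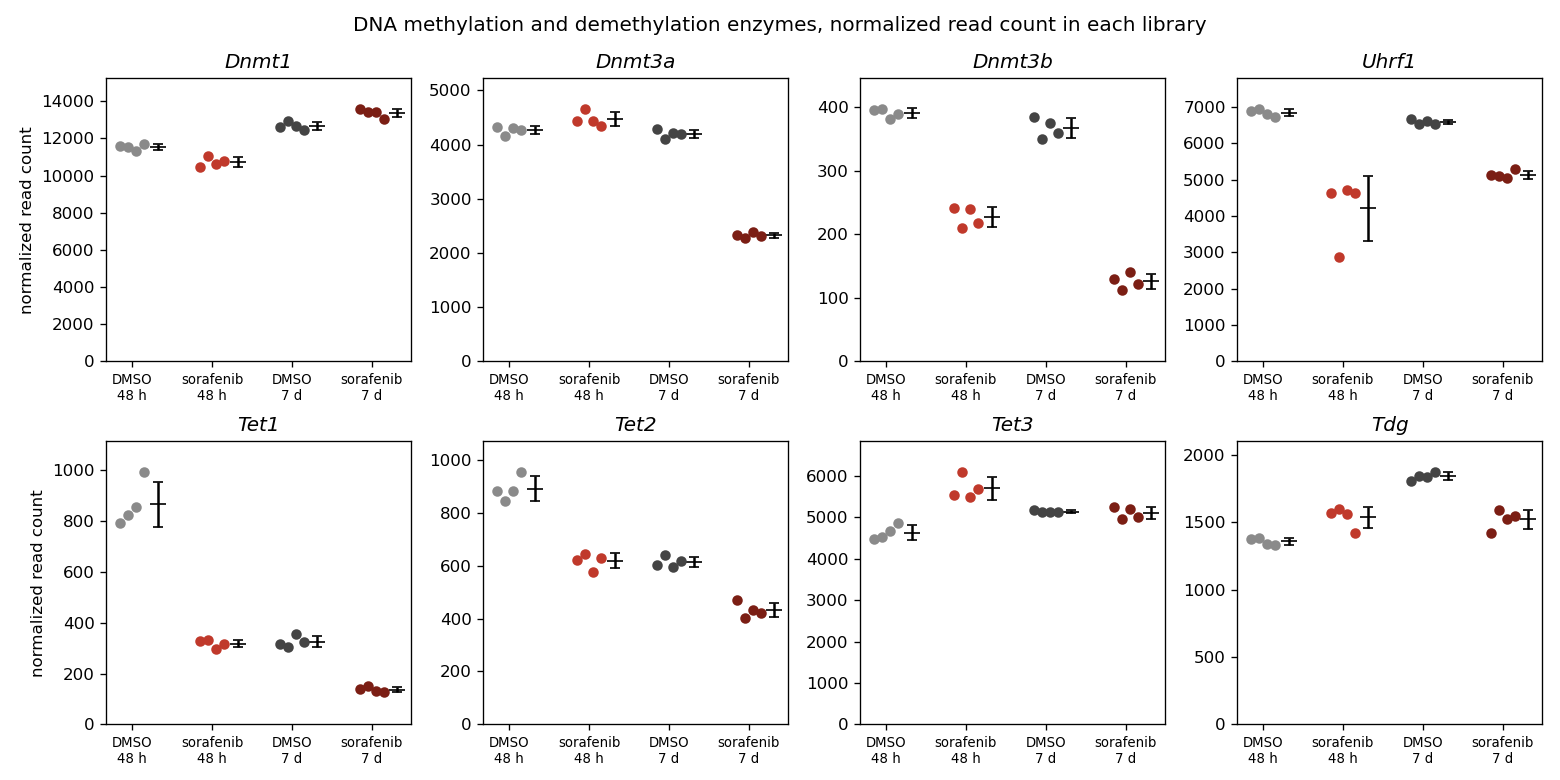
Normalized read count (vertical axis, from 0) of each of the 8 members in the 4 groups; dots are the 4 libraries of a group in replicate order, and the bar beside them is the mean with its SD. Tet1 falls from a mean of 867 in DMSO at 48 hours to 137 in sorafenib at 7 days, and the replicate 2 library of sorafenib at 48 hours sits apart at 2866 for Uhrf1.

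Compared per kilobase of annotated exon, the maintenance pair was far more abundant than the rest. In DMSO at 48 hours Dnmt1 had 1358 ± 17.9 normalized counts per kilobase (SD, n = 4) and Uhrf1 1298 ± 19.4, followed by Tet3 with 277 ± 10.3, Dnmt3a with 250.5 ± 4.54 and Tdg with 144 ± 2.88. Dnmt3b with 63.0 ± 1.18, Tet1 with 56.1 ± 5.77 and Tet2 with 50.2 ± 2.61 closed the order. The libraries of neighbouring genes overlapped there only between Dnmt3b and Tet1 and between Tet1 and Tet2. In sorafenib at 7 days Dnmt1 (1572 ± 27.4 per kilobase) and Uhrf1 (974 ± 20.5) still led, Tdg (161 ± 7.53) had moved above Dnmt3a (137 ± 2.47), and Tet1 (8.85 ± 0.695) was last, with no overlap between neighbours. In sorafenib at 48 hours Tet1 (20.6 ± 0.980 per kilobase) also stood last, below Tet2 (34.9 ± 1.63) and Dnmt3b (36.6 ± 2.52), whose libraries overlapped. DMSO at 7 days had Dnmt3b at 59.2 ± 2.57, Tet2 at 34.6 ± 1.09 and Tet1 at 21.1 ± 1.46 per kilobase, again without overlap. Exon lengths were taken from GENCODE vM39, which may differ from the annotation used for counting. They join the exons of all annotated transcripts of a gene, and the transcripts expressed here were not determined. The order of different genes depends on these lengths and is approximate.

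Dnmt1 (GRCm39 chr9:20817945-20871184, minus strand), the maintenance methyltransferase, changed little. At 48 hours the DMSO libraries had 11603, 11556, 11324 and 11676 normalized counts, and the sorafenib libraries 10432, 11073, 10607 and 10756. At 7 days DMSO gave 12635, 12931, 12647 and 12458, and sorafenib gave 13594, 13407, 13418 and 13040. Sorafenib libraries were thus all lower than DMSO at 48 hours and all higher at 7 days. The log2 fold change was -0.11 (SE 0.0263, FDR = 0.00173) at 48 hours and 0.08 (SE 0.0262, FDR = 0.0166) at 7 days. Shifts of this size are close to what another scaling makes: with totals in place of TMM factors the median gene moved by -0.07 at 48 hours, and over all alternatives the fold change of Dnmt1 ran from -0.18 to -0.07. Without replicate 4 of DMSO at 7 days, the library that stood apart, the 7-day difference no longer passed the threshold (log2 0.07, FDR = 0.0504).

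Uhrf1 (GRCm39 chr17:56610275-56630489, plus strand), which brings DNMT1 to half-methylated DNA, was lower under sorafenib at both times. DMSO libraries at 48 hours had 6901, 6955, 6823 and 6719 normalized counts, and sorafenib libraries 4649, 2866, 4708 and 4626. At 7 days the values were 6664, 6546, 6622 and 6537 in DMSO and 5118, 5098, 5048 and 5296 in sorafenib. No treated library reached the vehicle level at either time. Uhrf1 fell by 0.70 on the log2 scale at 48 hours (SE 0.0969, FDR = 3.42e-06) and by 0.36 at 7 days (SE 0.0960, FDR = 0.00327). The low value of 2866 belongs to the library whose chromosome 17 genes were lowered, and without that library the 48-hour log2 fold change was -0.55. The log2 ratio of Dnmt1 to Uhrf1 within a library was 0.75 ± 0.0309 (SD, n = 4) in DMSO and 1.38 ± 0.383 in sorafenib at 48 hours, where replicate 2 had 1.95 and the others 1.17 to 1.22, and 0.94 ± 0.0269 and 1.38 ± 0.0530 at 7 days.

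Dnmt1 and Uhrf1 were also the members whose promoters held letters of the E2F motif, the binding sequence of a factor family that drives S-phase genes. The RefSeq table gave 13 windows for the 8 members, each from 250 bases before to 50 after a start site, and all 13 matched GRCm39 exactly. The motif was searched on both strands as TTTGGCGC, TTTCCCGC, TTTCGCGC or TTTGCCGC, which 2.26% of 32851 promoters held. There were 3 matches in 2 of the 13 windows. They are shown because these members share the feature and the other 6 do not; capitals mark the motif, and each sequence reads 5′ to 3′ along the gene's strand.
Dnmt1, chr9:20864120-20864149, minus strand: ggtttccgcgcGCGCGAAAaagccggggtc
Dnmt1, chr9:20863870-20863899, minus strand: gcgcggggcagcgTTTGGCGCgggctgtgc
Uhrf1, chr17:56611117-56611146, plus strand: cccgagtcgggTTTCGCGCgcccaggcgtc
The matches start at base -219 and 33 from a Dnmt1 start site and at -185 from a Uhrf1 start site. Of the 20 DNA replication genes described later that have a window in the table, 10 held the same letters. The E-box CACGTG, found in 7.15% of promoters, occurred for 2 members, Tdg and Dnmt3a, the CCAAT letters (37.4% of promoters) for 4, TTTGAA (17.9%) for 2 and TGATGCAA (0.895%) for 0. CG pairs numbered 2 to 57 per window (median 26), and 8 of the 13 windows held more than 20, the upper quartile of all promoters, whose median was 7.

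Dnmt3a (GRCm39 chr12:3856007-3964443, plus strand), the more abundant of the de novo methyltransferases, was lower only in the late group. At 48 hours DMSO libraries had 4330, 4157, 4310 and 4265 normalized counts and sorafenib libraries 4432, 4662, 4436 and 4349. At 7 days DMSO had 4288, 4104, 4223 and 4190, against 2334, 2284, 2382 and 2310 in sorafenib. The early groups did not overlap, yet the difference was small and missed the threshold (log2 0.07, 95% interval 0.00 to 0.13, FDR = 0.0663). It turned to -0.0032 with totals alone as the scaling, and it was called with no filter beyond 1 count (log2 0.11, FDR = 0.00485). At 7 days Dnmt3a fell 1.80-fold, a log2 change of -0.85 (SE 0.0304, FDR = 3.49e-15).

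Dnmt3b (GRCm39 chr2:153490861-153529650, plus strand), the other de novo enzyme, was lower at both times. DMSO libraries at 48 hours had 395, 397, 381 and 390 normalized counts and sorafenib libraries 241, 210, 239 and 217. At 7 days the counts were 385, 349.5, 375 and 359 in DMSO and 129, 112, 141 and 122 in sorafenib. The groups stood far apart at each time, and its lowest values were those of sorafenib at 7 days. Dnmt3b fell 1.72-fold at 48 hours (log2 -0.78, SE 0.0668, FDR = 3.55e-09) and 2.91-fold at 7 days (log2 -1.54, SE 0.0704, FDR = 1.73e-13). The log2 ratio of Dnmt3a to Dnmt3b was 3.45 ± 0.0467 in DMSO and 4.30 ± 0.126 in sorafenib at 48 hours, and 3.52 ± 0.0380 and 4.21 ± 0.113 at 7 days.

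Tet1 (GRCm39 chr10:62640349-62744775, minus strand), a dioxygenase best known from pluripotent and germ cells, showed the largest fall among the members at 48 hours. DMSO libraries at 48 hours had 792, 824, 857 and 995 normalized counts, and sorafenib libraries 328, 331, 298 and 316. At 7 days DMSO had 318, 304, 357 and 326, and sorafenib had 138, 151, 132 and 126. The vehicle libraries at 7 days covered the range of the treated libraries at 48 hours in part, a pair of groups not tested against each other, and treated libraries at 7 days were the lowest. Tet1 fell 2.73-fold at 48 hours (log2 -1.45, SE 0.0741, FDR = 1.12e-12) and 2.38-fold at 7 days (log2 -1.25, SE 0.0866, FDR = 1.3e-10).

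Tet2 (GRCm39 chr3:133169436-133250900, minus strand), a TET enzyme without a DNA-binding CXXC domain of its own, followed the same order with smaller steps. Its normalized counts at 48 hours were 884, 844, 882 and 955 in DMSO and 622, 646, 578 and 628 in sorafenib. At 7 days they were 601, 639, 596 and 616 in DMSO and 469, 404, 434 and 421 in sorafenib. Treated and vehicle libraries did not overlap at either time. Tet2 fell by 0.53 on the log2 scale at 48 hours (SE 0.0528, FDR = 3.38e-08) and by 0.51 at 7 days (SE 0.0546, FDR = 9.91e-08).

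Tet3 (GRCm39 chr6:83339355-83436066, minus strand), the most abundant TET RNA here, was higher under sorafenib at 48 hours. Its normalized counts were 4468, 4526, 4669 and 4856 in DMSO and 5531, 6097, 5480 and 5672 in sorafenib. At 7 days the libraries overlapped, with 5176, 5134, 5114 and 5113 in DMSO and 5253, 4964, 5186 and 5005 in sorafenib. The log2 fold change was 0.30 (SE 0.0361, FDR = 5.54e-07) at 48 hours and -0.01 (95% interval -0.08 to 0.07, FDR = 0.845) at 7 days. Exons of Tet3 overlap those of Bola3 on the opposite strand. Bola3 had group means of 424 to 726 normalized counts and was itself higher at 48 hours (log2 0.69, FDR = 7.22e-09). The kit keeps strand, but the strand setting of the counting is not given in the sources used here, so shared reads cannot be told apart.

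Tdg (GRCm39 chr10:82465610-82489654, plus strand), the glycosylase that acts after the TET enzymes, moved in opposite directions at the 2 times. At 48 hours DMSO libraries had 1377, 1386, 1339 and 1332 normalized counts and sorafenib libraries 1567, 1595, 1560 and 1422. At 7 days the order was turned, with 1802, 1843, 1839 and 1874 in DMSO and 1423, 1590, 1522 and 1548 in sorafenib. Neither pair of groups overlapped. Tdg was 1.13-fold higher at 48 hours (log2 0.18, SE 0.0416, FDR = 0.00121), a call lost with totals alone as the scaling (log2 0.11, FDR = 0.0566), and 1.21-fold lower at 7 days (log2 -0.27, SE 0.0405, FDR = 7.56e-06). Its exons overlap Glt8d2 on the opposite strand, whose group means were 27.6 to 80.1 normalized counts.

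**Figure D2:**
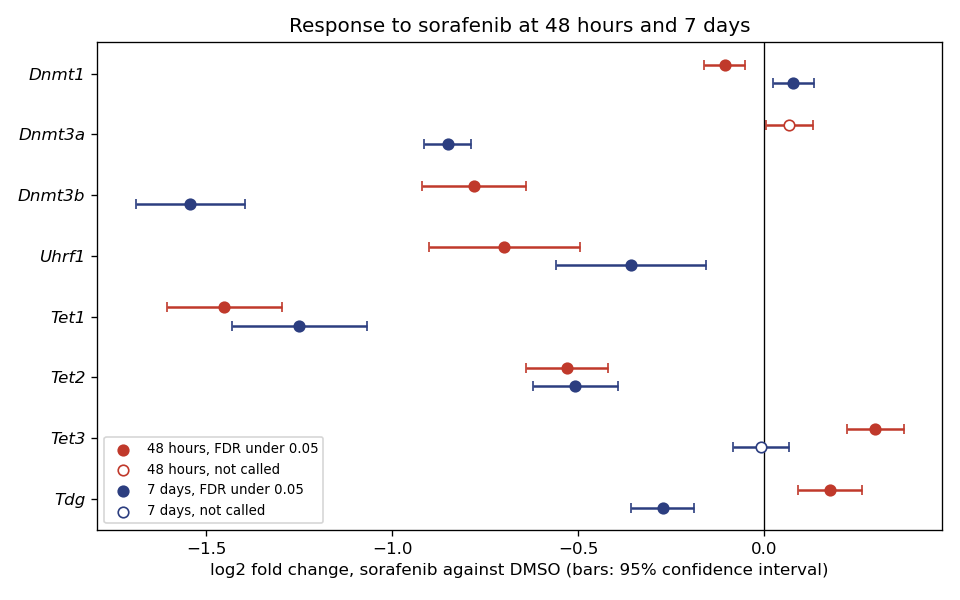
Log2 fold change of sorafenib against DMSO (horizontal axis) for the 8 members at 48 hours and at 7 days, with 95% confidence intervals; filled points have an FDR under 0.05. Dnmt3a moves from 0.07 at 48 hours to -0.85 at 7 days and Dnmt3b from -0.78 to -1.54, while Tet1 and Tet2 lie at like values at both times and Tdg lies on opposite sides of 0.

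The response at 7 days was then compared with the response at 48 hours. It differed for 5 of the 8 members, 1 with a more positive and 4 with a more negative response, where 36.8% of all tested genes differed (15.5% more positive and 21.3% more negative). Of all genes called in the difference, 42.1% were more positive, a share that rose to 55.6% with totals alone as the scaling. In the fit with at least 10 counts in every sample, 6827 of 12158 genes and 6 of the 8 members differed. The members with a more negative late response were Dnmt3a (log2 difference -0.92, SE 0.0426, FDR = 1.41e-12), Dnmt3b (-0.76, SE 0.0981, FDR = 3.33e-06), Tdg (-0.45, SE 0.0581, FDR = 3.44e-06) and Tet3 (-0.31, SE 0.0509, FDR = 6.56e-05). Among them Dnmt3b was lower under sorafenib at both times, while Dnmt3a and Tdg were lower at 7 days but not at 48 hours. Tet3 was higher at 48 hours (log2 0.30) and was not called at 7 days (log2 -0.01). Dnmt1 was the member with a more positive late response (0.18, SE 0.0371, FDR = 0.000505). These 5 kept their direction and their call under every alternative run. For Tet1 the difference of 0.20 (95% interval -0.04 to 0.44, FDR = 0.194) and for Tet2 that of 0.02 (95% interval -0.14 to 0.18, FDR = 0.862) missed the threshold. Uhrf1 had a difference of 0.34 (SE 0.136, FDR = 0.0583). Without the replicate 2 library of sorafenib at 48 hours that value was 0.20 and passed the threshold (FDR = 5.38e-06). It also passed, at 0.42 each, without replicate 1, 3 or 4 of that group (FDR = 0.0274 to 0.0314), at 0.44 with totals alone (FDR = 0.00824) and at 0.41 with at least 10 counts in every sample (FDR = 0.0256).

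The members also differed between the times, which cannot be told apart from any batch that the libraries of a time share. In vehicle cells 5 of 8 differed between 7 days and 48 hours, 3 higher and 2 lower, where 49.4% of all tested genes did so (23.9% higher and 25.5% lower). Tet1 fell 2.66-fold (log2 -1.41, SE 0.0713, FDR = 2.75e-12) and Tet2 fell 1.45-fold (log2 -0.54, SE 0.0515, FDR = 2.93e-08). Tdg was 1.35-fold higher (log2 0.44, FDR = 2.1e-08), Tet3 1.11-fold (log2 0.15, FDR = 0.00166) and Dnmt1 1.10-fold (log2 0.13, FDR = 0.000223), of which the calls for Tet3 and Dnmt1 were lost with totals alone as the scaling. Dnmt3a (log2 -0.02, 95% interval -0.08 to 0.04) and Dnmt3b (log2 -0.09, 95% interval -0.22 to 0.04) were not called, nor was Uhrf1 (log2 -0.06, FDR = 0.676), although its libraries did not overlap and it passed without the replicate 2 library of sorafenib at 48 hours (FDR = 0.0392). In vehicle cells 6 of 8 members did not overlap between the times, beside 50.8% of all tested genes. In the fit with at least 10 counts in every sample, 8635 of 12158 genes and 5 of the 8 members differed between these groups.

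In sorafenib-treated cells 7 of 8 members differed between the times, 2 higher and 5 lower, where 39.7% of all tested genes did so (17.5% higher and 22.3% lower). Tet1 (log2 -1.21), Dnmt3a (-0.94), Dnmt3b (-0.85), Tet2 (-0.52) and Tet3 (-0.16) were lower at 7 days, and Dnmt1 (0.32) and Uhrf1 (0.28) were higher. Without replicate 2 of sorafenib at 48 hours the value for Uhrf1 was 0.14. Its call was lost in a fit of these 8 libraries alone (log2 0.32, FDR = 0.114) and without replicate 4 of sorafenib at 7 days (log2 0.27, FDR = 0.0595). Tdg had a log2 difference of -0.01 (95% interval -0.10 to 0.07). Between these times 7 of 8 members did not overlap, beside 35.8% of all tested genes. In the fit with at least 10 counts in every sample, 7168 of 12158 genes and 7 of the 8 members differed between these groups. The treatment and time comparisons share libraries and are not independent of each other.

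Within the TET genes the balance moved toward Tet3. Of the summed TET counts per kilobase, Tet1 made up 14.6 ± 0.794% (SD, n = 4) in DMSO and 5.19 ± 0.196% in sorafenib at 48 hours, and 5.81 ± 0.406% and 2.62 ± 0.235% at 7 days. Tet2 made up 13.1 ± 0.316%, 8.79 ± 0.240%, 9.51 ± 0.309% and 7.18 ± 0.273% in the same order, and Tet3 72.3 ± 0.812%, 86.0 ± 0.418%, 84.7 ± 0.283% and 90.2 ± 0.241%. The sum itself changed less, from 384 ± 18.3 and 397 ± 18.7 counts per kilobase at 48 hours to 363 ± 0.993 and 339 ± 9.66 at 7 days. A share within a library does not depend on the scaling between libraries, but it does depend on the exon lengths used. The log2 ratio of Tet1 to Tet3 counts, not scaled for length, was -2.42 ± 0.0922 and -4.16 ± 0.0603 at 48 hours and -3.98 ± 0.102 and -5.22 ± 0.126 at 7 days.

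Within the methyltransferases Dnmt1 took most of the sum in every library. Its share of the summed DNMT counts per kilobase was 81.2 ± 0.286% and 80.8 ± 0.397% at 48 hours, in DMSO and sorafenib, and 83.0 ± 0.471% and 90.9 ± 0.236% at 7 days. Dnmt3a held 14.99 ± 0.318% and 16.8 ± 0.289% at 48 hours and 13.7 ± 0.331% and 7.90 ± 0.148% at 7 days. Dnmt3b held 3.77 ± 0.0550% and 2.35 ± 0.208%, then 3.30 ± 0.151% and 1.18 ± 0.106%. The de novo enzymes together thus had their smallest share of the sum in sorafenib at 7 days, while the summed level ran from 1560 ± 35.8 counts per kilobase in sorafenib at 48 hours to 1796 ± 20.2 in DMSO at 7 days.

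**Figure D3:**
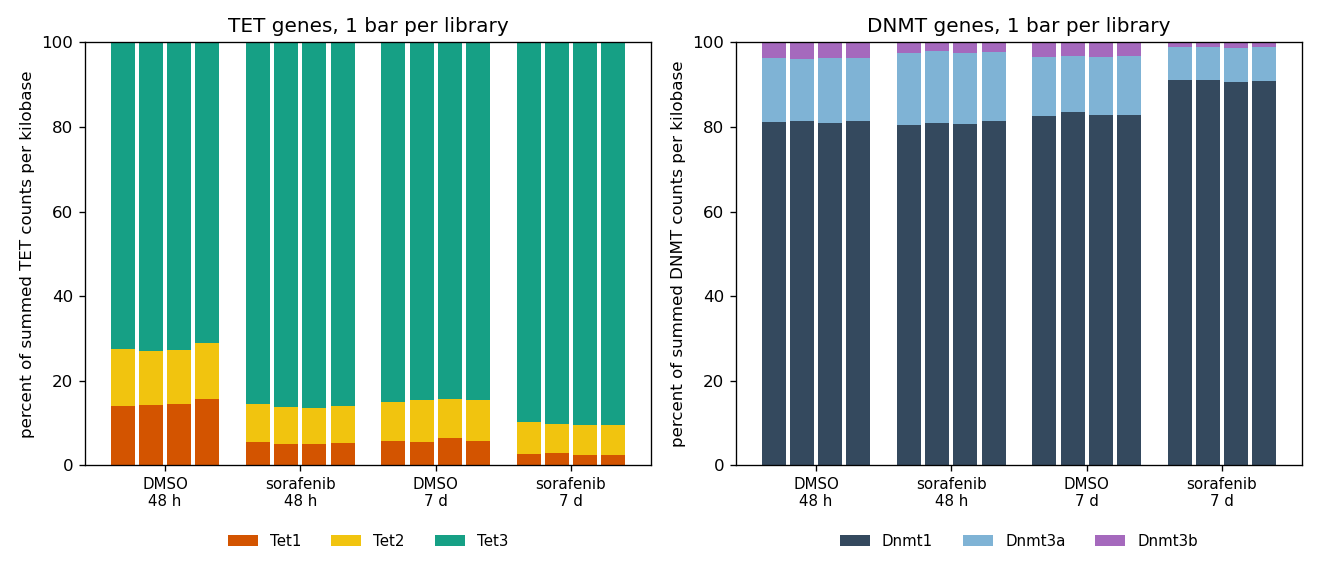
Share of the summed counts per kilobase (vertical axis, percent) held by each TET gene (left) and each DNMT gene (right), with 1 bar per library and 4 bars per group. Tet3 rises from 72.3% to 90.2% and Dnmt1 from 81.2% to 90.9% between DMSO at 48 hours and sorafenib at 7 days, and the 4 bars of a group are nearly alike.

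Lists of genes that work with the members were counted in the same way. Over all tested genes, 26.9% were higher and 27.7% lower at 48 hours, and 28.9% and 27.9% at 7 days. Of 7 tested partners of maintenance methylation 4 fell and 0 rose at 48 hours, and 3 fell and 2 rose at 7 days (median log2 -0.15 and -0.21). Without replicate 2 of sorafenib at 48 hours, 4 fell and 2 rose at 48 hours. Lig1, the ligase that joins newly made DNA, went from 4537 ± 55.9 to 2555 ± 53.8 normalized counts at 48 hours and from 4096 ± 68.3 to 3072 ± 75.5 at 7 days (log2 -0.83 and -0.42, FDR = 3.33e-15 and 1.48e-10). Pcna, the sliding clamp of replication, fell by 0.47 and 0.29 on the log2 scale (FDR = 8.71e-11 and 1.33e-07). Usp7, a deubiquitinase that binds DNMT1 and UHRF1, fell by 0.33 and 0.47 (FDR = 0.00432 and 0.000143). It lies on chromosome 16, and without replicate 2 of sorafenib at 48 hours its early log2 change was -0.19.

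Among 7 tested partners of de novo methylation, which include the chromatin methylases that guide DNMT3A and DNMT3B, 3 fell and 2 rose at 48 hours, and 6 fell and 0 rose at 7 days (median log2 -0.07 and -0.20), beside 27.7% and 27.9% lower over all tested genes. Without replicate 2 of sorafenib at 48 hours, 5 fell and 2 rose at 48 hours. Trim28, a corepressor that silences retroelements, fell by 0.60 and 0.56 on the log2 scale (FDR = 8.35e-12 and 2.21e-11). Ehmt2, a histone H3 lysine methylase, fell by 0.45 and 0.34 (FDR = 0.000282 and 0.00305), the first value being -0.32 without the library named above.

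Of the 10 TET cofactor and partner genes 5 fell and 2 rose at 48 hours, and 6 fell and 3 rose at 7 days (median log2 -0.14 and -0.16), where 54.6% and 56.8% of all tested genes were called. Idh1, which makes alpha-ketoglutarate in the cytosol, went from 4384 ± 95.7 to 2608 ± 81.0 normalized counts at 48 hours and from 3798 ± 131 to 1192 ± 70.4 at 7 days (log2 -0.75 and -1.67, FDR = 2.31e-12 and 1.2e-17). Cxxc5, a CXXC-domain protein that regulates TET2, fell by 0.57 and 1.06 (FDR = 0.000104 and 1.02e-07); it lies on chromosome 18, and its early change without that library was -0.43.

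The list for base excision repair after oxidation moved both ways. Of 13 genes 8 fell and 5 rose at 48 hours, and 5 fell and 4 rose at 7 days (median log2 -0.37 and -0.03), beside the same 54.6% and 56.8%. Those that fell at 48 hours were Mbd4, Smug1, Neil2 (log2 -1.99), Neil3, Apex1 (-0.73), Xrcc1, Lig3 and Parp1. Those that rose were Neil1 (0.28), Polb (0.56), Gadd45a, Gadd45b and Gadd45g. At 7 days Neil2, Apex1, Lig3, Parp1 and Gadd45b fell, and Neil1, Neil3, Gadd45a and Gadd45g rose. The genes that rose most were the stress-induced Gadd45g and Gadd45a, which were put in this list because their proteins have been linked to active demethylation and which also act in growth arrest. Gadd45g went from 51.0 ± 6.60 to 870 ± 109 normalized counts at 48 hours and from 305 ± 20.8 to 1880 ± 72.3 at 7 days (log2 4.09 and 2.62, FDR = 1.16e-17 and 7.03e-17). Gadd45a went from 144 ± 16.9 to 1825 ± 172 and from 172 ± 9.76 to 1808 ± 30.1 (log2 3.66 and 3.40, FDR = 9.55e-19 and 1.41e-18).

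Of the 8 genes listed as readers of methylated DNA 4 fell and 2 rose at 48 hours, and 3 fell and 2 rose at 7 days (median log2 0.01 and 0.09), again beside 54.6% and 56.8% called over all tested genes. The genes that fell included Mbd3 at both times (log2 -0.12 and -0.33, FDR = 0.0184 and 6.16e-07), whose binding to methylated DNA was not measured here. Without replicate 2 of sorafenib at 48 hours, 4 fell and 4 rose at 48 hours. Zbtb38 (log2 1.27 and 1.62, FDR = 4.16e-14 and 7.35e-16) and Zbtb4 (log2 1.02 and 1.501, FDR = 5.41e-12 and 3.3e-14), which rose at both times, encode zinc finger proteins that bind methylated CG pairs. In the list of methyl donor supply 2 of 6 tested genes were lower and 2 higher at 48 hours (median log2 -0.08). At 7 days 3 were lower and 2 higher (median -0.10), and 3 lower and 3 higher without replicate 4 of DMSO at 7 days. Over all tested genes 54.6% and 56.8% were called. The 2 higher genes were Ahcyl1 and Ahcyl2 (log2 0.47 and 0.52) at both times. The 3 lower at 7 days were Ahcy, Mat2b and Mat2a. Mat2a had a log2 change of -0.03 (FDR = 0.492) at 48 hours and -0.54 (FDR = 3.12e-11) at 7 days. Ahcy, which clears the inhibitory product of every methyl transfer from S-adenosylmethionine, fell from 5588 ± 185 to 2349 ± 184 normalized counts at 48 hours and from 5740 ± 93.0 to 2053 ± 31.4 at 7 days (log2 -1.25 and -1.48, FDR = 1.89e-15 and 1.21e-16). Mat2b, a regulatory subunit of methionine adenosyltransferase, fell by 0.47 and 0.75 (FDR = 2.44e-10 and 1.33e-13), while Ahcyl1, an AHCY-like protein that regulates calcium release, rose (log2 0.94 and 0.34, FDR = 9.12e-16 and 6.97e-09).

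DNA replication genes were described beside Dnmt1 and Uhrf1 because maintenance methylation is coupled to S phase. Of 25 genes 20 fell and 2 rose at 48 hours, and 15 fell and 3 rose at 7 days (median log2 -0.38 and -0.19), beside 27.7% and 27.9% lower over all tested genes. In treated cells 16 of 25 were higher and 0 lower at 7 days than at 48 hours, beside 17.5% and 22.3% of all tested genes; without replicate 2 of sorafenib at 48 hours 18 were higher and 1 lower. Mcm7 and Mcm5, subunits of the replicative helicase, fell by 0.57 and 0.52 at 48 hours and by 0.53 and 0.54 at 7 days (FDR = 1.16e-12 and 1.21e-11, then 4.22e-12 and 5.43e-12). Another subunit, Mcm2, rose at both times (log2 0.40 and 0.38, FDR = 6.46e-10 and 1.7e-09). The ribonucleotide reductase genes went apart, Rrm2 with log2 -0.33 and -0.58 and Rrm1 with 0.56 and 0.24 (FDR = 9.81e-09, 1.37e-12, 4.78e-13 and 1.53e-07). The part of a change in the number of dividing cells in the levels of the members was not tested.

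**Figure D4:**
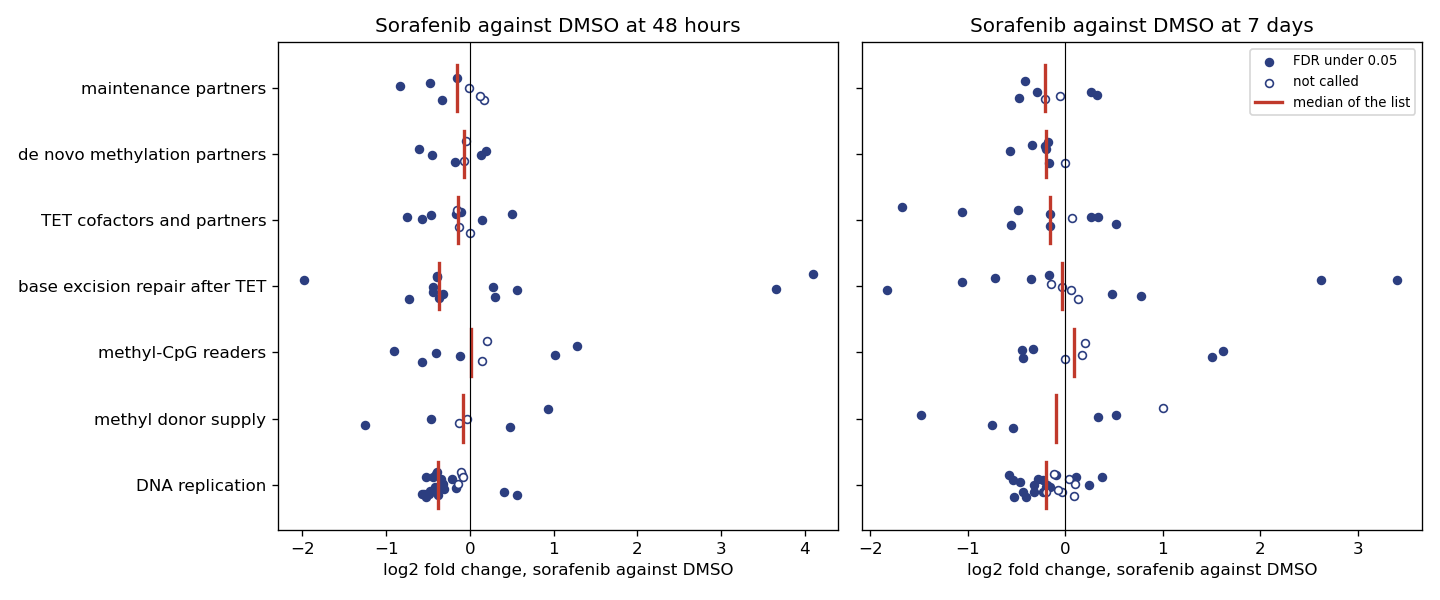
Log2 fold change of sorafenib against DMSO (horizontal axis) at 48 hours (left) and 7 days (right) for the tested genes of 7 lists around the members; each dot is a gene, filled where the FDR is under 0.05, and the red line is the median of the list. The DNA replication list is centred at -0.38 and -0.19, and the points far to the right are Gadd45g and Gadd45a at 4.09 and 3.66 at 48 hours.

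Germline genes that promoter methylation keeps silent in somatic cells were read as raw counts, since most had almost none. Of 14 such genes 11 had at most 3 counts in every library. The others were Taf7l, Ddx4 and Sycp3. Taf7l, an X-linked transcription factor subunit of male germ cells, had the highest counts. It had 2, 5, 2 and 0 counts in DMSO and 202, 121, 347 and 282 in sorafenib at 48 hours, then 5, 3, 2 and 7 in DMSO and 257, 377, 349 and 304 in sorafenib at 7 days (FDR = 9.08e-14 and 7.17e-14). Vehicle and treated libraries did not overlap at either time. Ddx4, a germ cell helicase, had 3 to 9 counts in DMSO and 7 to 17 in sorafenib at 48 hours (FDR = 0.000734), and 7 to 22 and 10 to 14 at 7 days. The meiotic gene Sycp3 had 2 to 8 and 0 to 1 counts at 48 hours and Tdrd1 had 2 to 3 and 0, levels at which no fold is given. Over the 4 tested genes 2 were higher and 2 lower at 48 hours and 1 was higher at 7 days, beside 54.6% and 56.8% of all tested genes called. The genes that fell, Sycp3 and Tdrd1, had at most 8 counts in any library. The rest of the 14 genes were not tested, so no direction is given for the list as a whole.

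Among 10634 genes averaging 100 or more normalized counts, those whose profile over the 16 libraries lay closest to each member were found by the root mean square difference of centred log2 values. Ccnk (0.032) and Rbbp6 (0.038) were nearest to Dnmt1, Srgap2 (0.033) and Usp6nl (0.038) to Tet3, and Gnl2 (0.041) and Bzw1 (0.047) to Tdg. For Dnmt3a they were Rgl1 (0.065) and Sema3f (0.070), and for Dnmt3b Acsl3 (0.092) and Fdxr (0.095). Tet2 lay closest to Depdc5 (0.065) and Inpp5k (0.081), and Tet1, the member that varied most, to Arrdc2 (0.149) and Dact3 (0.180). Wdr33 (0.057) and 1110038B12Rik (0.059) were nearest to Uhrf1, a likeness that includes the low replicate 2 library. The libraries fall into 4 groups, so these values describe likeness of group levels. A member's own root mean square about its mean was 0.125 for Dnmt1, 0.114 for Tet3 and 0.947 for Tet1. The differences are therefore not to be compared between members.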

How the data were processed

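RNA was sequenced in 16 libraries of p53-/-; Myc hepatoblasts, 4 per group. The authors used a stranded mRNA kit, sequenced on NovaSeq, aligned reads to GRCm39 with STAR 2.7.1a and deposited raw gene counts; the submitters' processing notes also name featureCounts 2.0.6, Subread and DESeq2 1.40.2. The strand setting and gene annotation of the counting are not given in the sources used here. Of 40840 genes, 20396 with fewer than 10 counts in total were removed, as the study did. Library totals were 16586254 to 30828427 counts, and 3 counts, taken as the floor, equal 2.44 to 4.54 normalized counts; intervals cover the spread between libraries. Counts were scaled by TMM and tested with edgeR 4.0.16 (quasi-likelihood F test, 1 coefficient per group, all 16 libraries, R 4.3.3), with Benjamini-Hochberg FDR under 0.05 over the 20444 tested genes. The test was also run on simulated counts of 18535 genes for sorafenib against DMSO at 48 hours. It recovered 55 of 100 changes of 0.5 on the log2 scale, with 4 estimates of the wrong sign. Of 100 changes of 1 it recovered 76, with 0 of the wrong sign, and 3 unchanged genes were called. The simulation gave every gene the same spread and had no library that stood apart, so it does not cover that part of these data. It also changed only 200 genes, whereas 54.6% of all tested genes were called at 48 hours in these data. Its numbers therefore do not give error rates for that comparison. Between replicates the chi-square per gene, over genes with 20 or more counts in a pair of libraries together, was 1.49 or more, above counting noise alone. This is another calculation than the one given earlier. Here replicate 4 of DMSO at 7 days had 41.4 to 55.0 against the rest of its group, and there 29.4 to 39.2. All libraries were kept, those that stood apart included, and the chi-square does not show that they came from separate cultures. Alternatives were DESeq2 1.42.0, its size factors, totals alone, other filters, a replicate block, the 8 libraries of a comparison alone, and leaving out each library. Named genes were the members, the 2 largest called changes of each list at each time averaging 20 or more normalized counts, and the 2 nearest profiles per member. The genes named from overlaps, Bola3 and Glt8d2, the 3 leading genes of a library that stood apart, and the germline genes other than Taf7l were named after their values were seen. So were Ahcyl2, Mat2a, Mcm2, Mbd3 and the base excision repair genes other than Gadd45a and Gadd45g. Members and lists were chosen with earlier results of these data known. Exon lengths and positions came from GENCODE vM39, in which 32487 of 40840 gene names were found, and promoter windows from RefSeq (GRCm38.p6), placed on GRCm39 by exact match. Protein sequences were not used here.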

Additional observations from a re-analysis of the deposited data

Results flagged for a closer look

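The 8 members and the 19 list genes named for the largest called changes formed 108 groups of 4 libraries. Of these groups 10 had a library that stood apart by Dixon's test at the 95% level. Chance gives about 1 in 20 such groups. Of the members this held for Uhrf1, at 2866 normalized counts in replicate 2 of sorafenib at 48 hours, beside 4626 to 4708 in the other 3 libraries. The same library was lowest for Usp7 (3369 beside 5155 to 5387) and Ehmt2 (4677 beside 7037 to 7390), which also lie on its lowered chromosomes. It was highest for Pcna (3791 beside 3466 to 3487), Trim28 (15109 beside 13355 to 13491) and Ahcy (2625 beside 2246 to 2276), on its raised chromosomes. Outside that library, replicate 1 of sorafenib at 7 days was highest for Trim28 (14306 beside 13604 to 13681). Among DMSO libraries at 7 days, replicate 4 was highest for Gadd45g (336 beside 291 to 297), replicate 2 lowest for Zbtb4 (180 beside 202 to 205) and replicate 1 highest for Mcm7 (8504 beside 8026 to 8056).

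The responses at 7 days and 48 hours differed, by edgeR's test of the difference, for 5 of the 8 members, beside 36.8% of all tested genes. The log2 differences were 0.18 for Dnmt1 (FDR = 0.000505), -0.92 for Dnmt3a (FDR = 1.41e-12), -0.76 for Dnmt3b (FDR = 3.33e-06), -0.31 for Tet3 (FDR = 6.56e-05) and -0.45 for Tdg (FDR = 3.44e-06).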

How the results depend on the processing

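The counts of members called moved little. Leaving out each library in turn gave 7 members in every fit at 48 hours, 6 to 7 at 7 days, 5 to 6 for the difference of the responses, 5 to 6 in vehicle cells over time and 6 to 7 in treated cells over time. With all libraries 54.6%, 56.8%, 36.8%, 49.4% and 39.7% of all tested genes were called in these comparisons. Those calls moved too. Without replicate 2 of sorafenib at 48 hours the difference was called for 6 members and 8761 of 20353 genes, against 5 members and 7515 of 20444 genes. Totals alone as the scaling gave 3 members in vehicle cells over time, against 5, and 9941 of all tested genes, against 10100. With the replicate number as a block the counts were 7, 7, 5, 5 and 7, and no call of a member changed. Over all 20444 tested genes the block gave 10916, 11348, 7282, 9871 and 7809 calls. Same-numbered libraries did not deviate together (mean correlation -0.009 at 48 hours and 0.068 at 7 days), so the numbers were not taken to pair samples. Directions turned only for differences of members that were not called: Dnmt3a at 48 hours (-0.0032 with totals alone), Tet3 at 7 days (0.0135 with totals alone, 0.0138 with no filter beyond 1 count, 0.0166 with at least 10 counts in every sample, and -0.0234 to 0.0041 with 1 library left out), and the difference of responses of Tet2 (-0.0173 to 0.061 with 1 library left out). Tdg in treated cells over time turned to 0.023 with DESeq2, 0.020 with its size factors, 0.023 with totals alone, 0.040 with 10 counts in every sample, 0.026 with 8 libraries, and lay between -0.0349 and 0.0219 with 1 library left out. The call of Uhrf1 in treated cells over time was lost with 8 libraries (FDR = 0.114) and without replicate 4 of sorafenib at 7 days (FDR = 0.0595). The cause of these changes was not tested. With no filter beyond 1 count, Dnmt3a was called at 48 hours (0.1058, FDR = 0.00485). Depth sets a floor of 3 counts, and the mean of every member was above 100 normalized counts in every group.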
